A study of Mus musculus with 15 samples.

Results

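The carriers of the blood-retina barrier described here are 9 genes of mouse: *Slc38a5*, *Slco1c1*, *Slc2a1*, *Slc7a5*, *Slc7a1*, *Slc16a1*, *Slc3a2*, *Abcb1a* and *Abcg2*. They were chosen by name, as the amino acid, thyroid hormone, glucose and lactate carriers and the efflux pumps of retinal vessels, and every probe with one of these symbols was taken. The choice was made with earlier results of these data known. There were 9 such probes for 8 of the 9 genes, of 16675 gene symbols and 29922 probes on the array, with a pair of probes for *Slc7a1* and none under the symbol *Abcb1a*. A ratio array gives no level of a gene, so carriers were compared between retinas and not with each other.

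RNA of whole neural retina from C57BL/6J mice was compared on 15 two-colour arrays, 3 for each of 5 comparisons. Pups with oxygen-induced retinopathy (OIR, named O) had been moved on postnatal day 7 (P7) to 75% oxygen for 5 days and returned to room air at P12, and normal pups (N) stayed in room air. OIR retinas were set against normal retinas of the same age at P8, after 1 day in oxygen (P8-O/P8-N), at P12, after 5 days (P12-O/P12-N), and at P13, 1 day after the return (P13-O/P13-N). OIR retinas at P13 were also set against normal retinas at P9 (P13-O/P9-N), and normal retinas at P9 against P30 (P9-N/P30-N). Each channel held a pool of 10 retinas from 5 mice of 1 litter, different pools came from different litters, and the litter is therefore part of every difference between pools. All mice were of 1 wild-type strain, and no cells were sorted. Values are log2 ratios, and a value above 0 stands for more RNA in the retina named first.

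Retinal endothelial cells are sealed by tight junctions, so that nutrients of the inner retina pass from the blood through carriers in their membranes, and many drugs are pumped back. The outer retina is supplied from the choroid across the pigment epithelium. In the mouse retina, Norrin from Mueller glia acts through the receptor Frizzled-4 and its co-receptor Lrp5 on endothelial cells and switches on barrier genes, and *Slc38a5* is among the genes known to be lost from retinal vessels where this signal is missing. In OIR, high oxygen stops vessel growth and closes capillaries, and after the return to room air the avascular retina becomes hypoxic.

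An array held 12008 to 21189 values, since many probes were left blank in the deposited data, and replicate arrays correlated at r = -0.20 to 0.21 in P8-O/P8-N, 0.34 to 0.52 in P12-O/P12-N, 0.04 to 0.46 in P13-O/P13-N, 0.42 to 0.61 in P13-O/P9-N and 0.83 to 0.90 in P9-N/P30-N. The carriers were unequally covered. *Slc38a5*, *Slc3a2* and both *Slc7a1* probes had a value on all 15 arrays, *Abcg2* on 12, *Slc2a1* on 8, *Slco1c1* on 7, *Slc16a1* on 1 and *Slc7a5* on 0. A probe entered the test of a comparison if it was blank on no more than 1 array, which let 7 probes of 6 genes into at least 1 comparison and left *Slc7a5*, *Slc16a1* and *Abcb1a* without a test. A probe was called at an adjusted p under 0.05 (limma, Benjamini-Hochberg over all probes tested in the comparison). Only *Slc38a5*, *Slco1c1* and *Slc2a1* were called in any of the 5 comparisons.

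The promoters of these 3 called genes are shown first, because only these were called, of the 6 carriers that could be tested, and the *Slc2a1* call was lost when any 1 array was left out. They are RefSeq sequences of the GRCm38.p6 build, 250 bases before and 50 bases from the annotated start, given 5′ to 3′ on the gene's strand, which is the plus strand for all 3. Capitals mark every match, on either strand, to ACGTG or GCGTG, the core that hypoxia-inducible factors bind.
*Slc38a5*, chrX:8271131-8271430: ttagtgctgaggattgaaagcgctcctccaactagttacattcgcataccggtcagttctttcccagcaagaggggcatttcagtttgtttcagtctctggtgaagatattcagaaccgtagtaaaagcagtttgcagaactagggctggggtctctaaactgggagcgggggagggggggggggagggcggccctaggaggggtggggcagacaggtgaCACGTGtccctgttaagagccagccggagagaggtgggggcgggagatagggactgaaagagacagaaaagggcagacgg
*Slco1c1*, chr6:141524104-141524403: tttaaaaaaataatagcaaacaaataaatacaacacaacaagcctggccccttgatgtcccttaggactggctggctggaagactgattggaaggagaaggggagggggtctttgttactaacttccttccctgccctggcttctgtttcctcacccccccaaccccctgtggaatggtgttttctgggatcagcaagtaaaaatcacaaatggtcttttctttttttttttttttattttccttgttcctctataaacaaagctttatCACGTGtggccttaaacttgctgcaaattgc
*Slc2a1*, chr4:119108495-119108794: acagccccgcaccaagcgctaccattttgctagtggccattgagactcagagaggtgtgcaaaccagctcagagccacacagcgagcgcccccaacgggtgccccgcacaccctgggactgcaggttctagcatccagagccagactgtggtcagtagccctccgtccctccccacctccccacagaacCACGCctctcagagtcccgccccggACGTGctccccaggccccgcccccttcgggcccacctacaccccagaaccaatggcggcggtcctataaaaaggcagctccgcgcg
In *Slc38a5* and in *Slco1c1* the match is CACGTG, a palindrome that reads ACGTG on both strands. With the first transcribed base as position 1 and no position 0, it begins at -30 in *Slc38a5* and at 20 in *Slco1c1*. The *Slc2a1* promoter holds GCGTG on the minus strand at -61 and ACGTG at -36. The core is common: 43.8% of 32851 mouse promoters of this length hold it, and so did 7 of the 11 promoters listed for 8 of the carriers. CACGTG, which was searched after these matches had been seen, is in 7.2% of all promoters and in 3 of the 11, that of *Slc16a1* being the third. TGATGNAA, the amino acid response element, was in 4.0% of all promoters and in 0 of the 11. CTTTGAA or CTTTGAT, the site of TCF/LEF factors at the end of the Wnt pathway, was in 8.7% and in 3 of the 11, those of *Abcb1a*, *Slc7a1* and *Slc3a2*. All were searched on both strands, CACGTG contains the core, and a match describes letters, not a bound site.

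*Slc38a5* encodes a sodium-coupled carrier of glutamine and other small neutral amino acids. Its RNA was lower in OIR than in normal retina at each of the 3 ages, with means from -1.16 to -0.99. At P8 the 3 arrays read -1.42, -1.27 and -0.79, a mean of -1.16 (SE 0.14, limma adjusted p = 0.0014), which is a ratio of 0.45. At P12 they read -1.30, -1.09 and -1.10, a mean of -1.16 (SE 0.14, adjusted p = 0.0011). At P13, after 1 day in room air, they read -0.60, -1.27 and -1.11, a mean of -0.99 (SE 0.14, adjusted p = 0.0028), a ratio of 0.50. The ranges of the 3 ages overlap, and no array of any age lay above 0. Of all probes tested, the mean of *Slc38a5* ranked 8 from the lowest among 13659 at P8, 13 among 16516 at P12 and 7 among 14436 at P13.

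**Figure D1:**
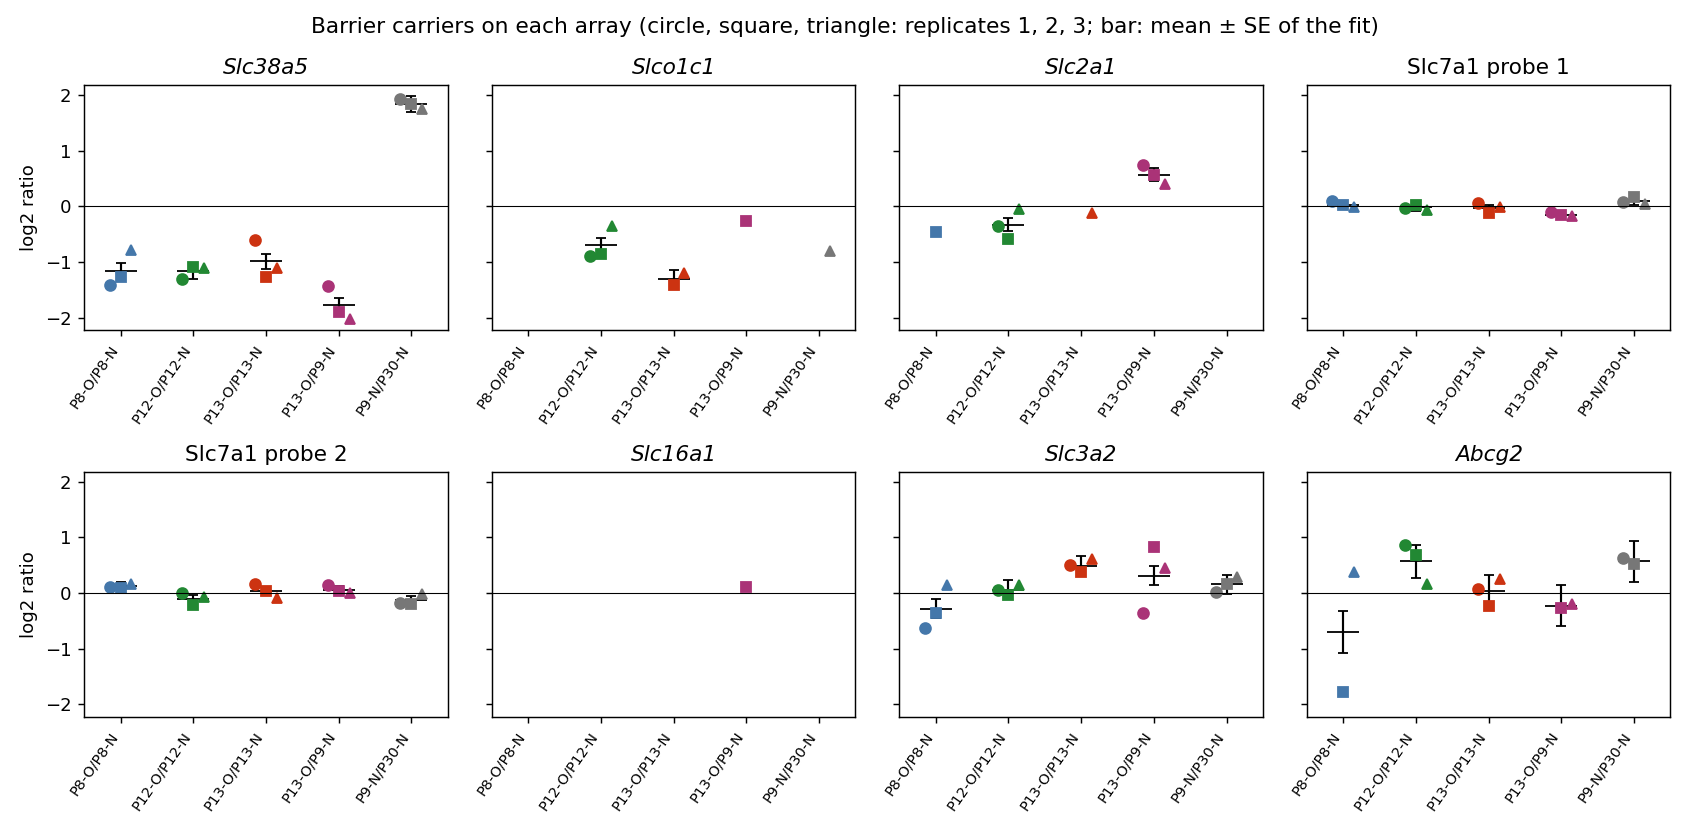
Log2 ratios of the 8 carrier probes with any value, 1 panel a probe, by comparison on the x axis. Symbols are the 3 replicate arrays, blanks are missing values, and bars are the fitted mean ± SE where at least 2 arrays had a value. *Slc38a5* lies below 0 on all 12 arrays with an OIR retina and at 1.75 to 1.93 in P9-N/P30-N, while both *Slc7a1* probes stay between -0.22 and 0.17.

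No difference in *Slc38a5* between the OIR ages passed the test. P12 minus P8 was -0.00 (95% interval -0.44 to 0.43, adjusted p = 0.99), P13 minus P8 was 0.17 (-0.27 to 0.60, adjusted p = 0.78) and P13 minus P12 was 0.17 (-0.26 to 0.60, adjusted p = 0.73). The intervals leave room for a change of up to 0.60 upward and 0.44 downward. Of all probes, 1.5% were called for P13 minus P8, 0.0369% for P12 minus P8 and 2.55% for P13 minus P12, and 0 carrier probes were called in any of these differences (limma), with 1, 2 and 1 at an unadjusted p under 0.05.

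The calls of *Slc38a5* at P8 and P13 used the spread of the probe over all 15 arrays. When each comparison was fitted by itself, the adjusted p was 0.3 at P8 and 0.18 at P13, and SAM, the test that the study's methods name, gave 0.4 and 0.25. SAM was run here on the 3 deposited ratios of each comparison alone, while the study also had replicates with switched dyes, so its input may have differed. The P12 call was kept by both, and the P13 value was -0.85 without replicate 2 (adjusted p = 0.065).

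Against normal retina of P9, *Slc38a5* in the OIR retina of P13 was lower as well. The direction of this comparison rests on the order of its channels in the labels. The arrays read -1.44, -1.89 and -2.02, a mean of -1.78 (SE 0.14, adjusted p = 5.2e-06) or a ratio of 0.29, rank 2 from the lowest of 18848 probes. In normal retina it was higher at P9 than at P30, at 1.93, 1.84 and 1.75, a mean of 1.84 (SE 0.14, adjusted p = 3.9e-07) or a ratio of 3.58, rank 33 from the highest of 13818 probes. P13-O/P9-N minus P13-O/P13-N cancels the OIR retina and gives normal P13 over normal P9 indirectly. This was -0.79 (SE 0.20, 95% interval -1.22 to -0.36, adjusted p = 0.041). The pools of OIR retina at P13 may be the same in both comparisons, and those of normal retina at P9 may be shared by P13-O/P9-N and P9-N/P30-N, where they stand on opposite sides. The fit takes all arrays as independent, so a lower value in one of these comparisons and a higher value in the other are not independent results, for *Slc38a5* or for any gene below. The indirect value had an adjusted p of 0.05 or more under 6 of 16 alternatives, among them a fit with the replicate number as a block (adjusted p = 0.057), and stood at -0.59 without replicate 1 of P13-O/P13-N.

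The dyes limit the *Slc38a5* values. The P9-N/P30-N ratios were inverted here to set P9 over P30, and as deposited *Slc38a5* was below 0 on all 15 arrays. Of the 9839 probes with a value on every array, 0.254% were below 0 on all 15 as deposited and 0.112% above. The sources used here do not say which dye each retina had in a deposited ratio, and the part of a dye effect of this probe in its values was not tested.

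*Slco1c1* encodes a carrier that takes thyroxine into brain across the vessel wall. At P12 its RNA was lower in OIR retina on all 3 arrays, at -0.89, -0.86 and -0.36, a mean of -0.70 (SE 0.13, adjusted p = 0.03) or a ratio of 0.61. At P13 only replicates 2 and 3 had a value, -1.42 and -1.19, a mean of -1.31 (SE 0.16, adjusted p = 0.016) or a ratio of 0.40, rank 2 from the lowest of 14436 probes. Both P13 values lie below all 3 of P12, but the difference of -0.60 did not pass the test (95% interval -1.09 to -0.11 without adjustment over probes, adjusted p = 0.19). At P8 the probe was blank on all arrays, so nothing can be said of the first day in oxygen. Single arrays read -0.26 in P13-O/P9-N and -0.81 in P9-N/P30-N, the latter on the side opposite to *Slc38a5*. The P12 call was lost without replicate 1 (adjusted p = 0.16) or replicate 2 (0.091) and in a fit of P12 alone (0.074), and that of P13 in a fit of P13 alone (0.16).

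*Slc2a1* encodes the glucose carrier GLUT1 of the vessel wall and pigment epithelium. At P12 its arrays read -0.36, -0.59 and -0.05, a mean of -0.33 (SE 0.12) that did not pass the test (adjusted p = 0.15). The single values at P8 and P13 were -0.46 and -0.12. In OIR retina at P13 over normal retina at P9 the arrays read 0.74, 0.57 and 0.40, a mean of 0.57 (SE 0.12, adjusted p = 0.028) or a ratio of 1.48, and all 3 lay above every other *Slc2a1* value. Leaving out any 1 of these 3 arrays raised the adjusted p to between 0.06 and 0.14, and with the replicate block it was 0.057. With no value in P9-N/P30-N and 1 in P13-O/P13-N, age and OIR cannot be told apart in this rise.

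*Slc3a2* encodes the heavy chain that carries the light chain of *Slc7a5*, the large neutral amino acid carrier, to the membrane. In OIR over normal retina the P8 arrays read -0.62, -0.36 and 0.14, the P12 arrays 0.06, -0.04 and 0.14, and the P13 arrays 0.50, 0.37 and 0.61. The P13 arrays were all above those of P8 and P12. The mean of 0.49 at P13 (SE 0.17, 95% interval 0.12 to 0.87) had an adjusted p of 0.26, and P13 minus P8, 0.77 (SE 0.25), one of 0.19. Neither was called. In P13-O/P9-N its arrays were apart, at -0.36, 0.83 and 0.45 (mean 0.31, adjusted p = 0.35), and the mean was called without replicate 1 (0.64, adjusted p = 0.027). In P9-N/P30-N it read 0.02, 0.17 and 0.28.

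*Slc7a1* encodes the carrier of arginine and other cationic amino acids. All 30 values of its 2 probes lay between -0.22 and 0.17, and neither probe was called in any of the 5 comparisons in the main fit. SAM called both in P9-N/P30-N (adjusted p = 0.032 and 0.031). For the first probe the 95% interval was -0.10 to 0.17 at P8, -0.15 to 0.11 at P12 and -0.16 to 0.11 at P13. For the second it was -0.03 to 0.27, -0.25 to 0.05 and -0.11 to 0.19. A change of the size seen for *Slc38a5* lies outside each of these intervals. The means of the 2 probes had opposite signs in P9-N/P30-N, at 0.09 and -0.12.

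*Abcg2*, an efflux pump for drugs and other foreign molecules, was not called in any comparison of the main fit and varied most between arrays. It read -1.78 and 0.37 on the 2 P8 arrays with a value. The P12 arrays read 0.87, 0.68 and 0.16, all above 0, and the P13 arrays 0.07, -0.23 and 0.25. Its standard errors were 0.30 to 0.37, which were the widest among the carriers. In P13-O/P9-N the values were -0.27 and -0.19, and in P9-N/P30-N 0.63 and 0.52, a mean of 0.57 (adjusted p = 0.28). A limma fit of P9-N/P30-N alone called it (adjusted p = 0.012). *Slc16a1*, the lactate carrier MCT1, had a single value of 0.11, in P13-O/P9-N, and *Slc7a5* and the efflux pump *Abcb1a* gave no value.

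Counted by probe, 1 of the 5 carrier probes tested at P8 was lower in OIR retina, where 0.432% of all probes tested were lower and 0.205% higher. At P12 it was 2 of 7, where 3.88% of all probes were lower and 3.2% higher, and at P13 2 of 6, where 0.547% were lower and 0.963% higher. No carrier probe was called higher in OIR retina at these ages in limma or SAM, and 1, *Slc3a2* at P13, was higher at an unadjusted p under 0.05. In P13-O/P9-N 1 of 6 was higher and 1 lower, beside 4.55% and 3.96% of all probes. In P9-N/P30-N 1 of 5 was higher and 0 lower, beside 17.5% and 16.2%, and in the indirect comparison of normal P13 with P9 1 of 5 was lower and 0 higher, beside 1.71% and 2.83%. The median of the carrier genes was -0.49 at P8 over 4 genes, -0.20 at P12 over 6 and 0.01 at P13 over 5, beside medians of -0.00, -0.00 and -0.01 of all probes. The genes tested differed between the ages, so these medians do not trace a change with age. At P8 the median lay between *Slc3a2* (-0.28) and *Abcg2* (-0.70), whose 2 arrays read -1.78 and 0.37. The lower counts were those of *Slc38a5* and *Slco1c1* alone. Since the carriers were chosen with earlier results of these data known, their shares beside those of all probes may be partly set by the choice.

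Genes of endothelial cells were lower in the same OIR retinas. Of 25 such genes, 3 of 15 tested were lower at P8 (median -0.35), 13 of 17 at P12 (median -0.66) and 3 of 15 at P13 (median -0.24), and 0 were higher. At P12 they included *Cd34* (-1.41, SE 0.13, adjusted p = 0.00016), *Vwf*, which encodes von Willebrand factor (-1.23, SE 0.11), and *Cdh5*, the cadherin between endothelial cells (-1.07, SE 0.11). Pericyte genes were lower for 0 of 6 at P8, 3 of 7 at P12 (median -0.49) and 1 of 7 at P13, where 1 was higher. Of all probes tested, 0.432% were lower at P8, 3.88% at P12 and 0.547% at P13, and 0.963% were higher at P13. After the return to room air, endothelial genes were less far below normal: P13 minus P12 was called higher for 6 of 15 and lower for 0, with a median of 0.49. Of all probes, 2.55% were called in this difference. For *Slc38a5* it was 0.17 (95% interval -0.26 to 0.60) and not called. That interval contains the endothelial median. A test of whether P13 minus P12 differed between *Slc38a5* and these genes is not given here. The distance of *Slc38a5* from them at each age is given below. In whole retina, fewer vessel cells and less RNA of a carrier in each cell cannot be told apart.

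The 11 endothelial genes with a value on all 15 arrays had a median of -0.44 to -0.36 on the P8 arrays, -0.82 to -0.73 at P12, -0.30 to -0.06 at P13, -0.23 to 0.11 in P13-O/P9-N and 0.24 to 0.34 in P9-N/P30-N. *Slc38a5* lay below this median on all 12 arrays with an OIR retina. Its distance from it was -0.75 at P8 (95% interval -1.04 to -0.46), -0.41 at P12 (-0.70 to -0.11), -0.85 at P13 (-1.14 to -0.55) and -1.71 in P13-O/P9-N (-2.00 to -1.41), and it was 1.55 above it in P9-N/P30-N (1.25 to 1.84). *Slco1c1* was at the endothelial median at P12, with a difference of 0.05 (-0.28 to 0.39), and below it at P13, with a difference of -1.13 (-1.54 to -0.72) on 2 arrays. This measure was chosen after the values had been seen, and is given as a description.

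**Figure D2:**
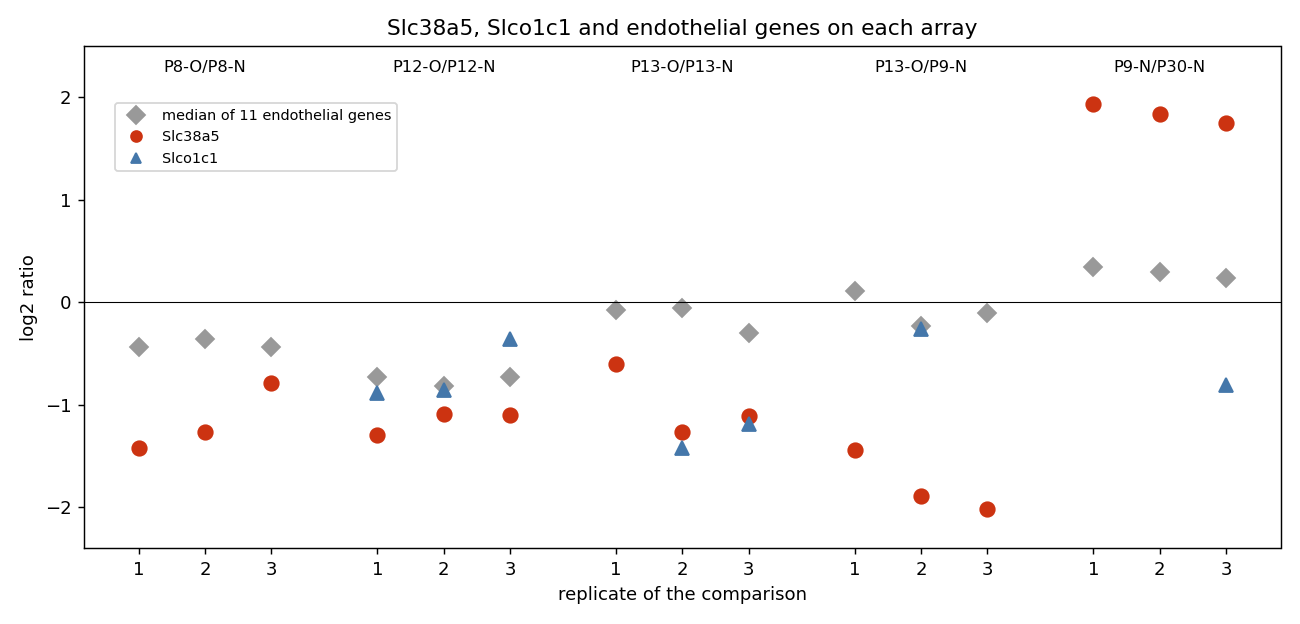
Log2 ratio (y axis) of *Slc38a5* (circles), *Slco1c1* (triangles) and the median of 11 endothelial genes (diamonds) on each of the 15 arrays, grouped by comparison along the x axis. *Slc38a5* is below the endothelial median on all 12 OIR arrays and above it in P9-N/P30-N, and *Slco1c1* is near it at P12 and below it at P13.

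The junction gene *Cldn5*, the claudin that seals endothelial cells, was also lower at all 3 ages. Its means were -0.51 at P8 (SE 0.08, adjusted p = 0.012), -1.0 at P12 (adjusted p = 5.6e-05) and -0.76 at P13 (adjusted p = 0.00027). In P13-O/P9-N it was -0.83 (adjusted p = 2.6e-05) and in P9-N/P30-N 0.41 (adjusted p = 0.0013), and the indirect value of normal P13 over P9 was -0.07 (adjusted p = 0.85). Of the list of genes of junctions and vesicles, *Cldn5* included, 2 of 8 were lower and 0 higher at P8, 2 of 10 lower and 1 higher at P12, and 2 of 8 lower and 0 higher at P13. Of all probes tested, 0.432%, 3.88% and 0.547% were lower at these ages, and 3.2% were higher at P12. The higher gene of the list was *Jam2*, a junction adhesion molecule of endothelial cells. At P12 it read 1.45, 0.57 and 1.28 on 1 probe (mean 1.10, SE 0.14, adjusted p = 0.0014), 0.83 on the second (adjusted p = 0.033) and 0.21 on the third, which was not called (adjusted p = 0.3). *Cavin1*, a coat protein of caveolae, was lower at P8 (-0.50, adjusted p = 0.036) and P12 (-0.89, 2 arrays, adjusted p = 0.0019). *Cav1*, the main protein of caveolae, was higher in P13-O/P9-N (1.03) and lower in P9-N/P30-N (-1.26).

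At P12, where 3.88% of all probes were lower and 3.2% higher, 3 of 12 tested genes of the Norrin and Wnt signal were lower and 0 higher. They were transcription factors: *Foxf2* (-0.93, SE 0.18, adjusted p = 0.012), *Foxq1* (-0.88, SE 0.09, adjusted p = 0.003) and *Sox17* (-0.80, SE 0.15, adjusted p = 0.01), which endothelial cells or pericytes express. *Sox17* was lower at P13 as well (-0.75, adjusted p = 0.025), as 1 of 8 beside 0.547% of all probes. At P8 0 of 9 were called, where 0.432% of all probes were lower and 0.205% higher. *Sox17* is also among the endothelial genes counted above as lower at P12 and P13. The receptor gene *Fzd4* read -0.10 at P12 (adjusted p = 0.58) and *Axin2*, a common target of Wnt signals, -0.17 (adjusted p = 0.43). Neither passed the test.

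A list of 35 other carriers and receptors of brain and retinal vessels was counted in the same way. At P8 1 of 16 genes was lower, at P12 4 of 19 and at P13 0 of 17, beside 0.432%, 3.88% and 0.547% of all probes, and 0 were higher. The medians were -0.09, -0.06 and -0.08. *Slc40a1*, the iron exporter ferroportin, read -0.89, -0.67 and -0.52 at P8 (mean -0.70, adjusted p = 0.03), -0.91, -0.64 and -0.77 at P12 (mean -0.77, adjusted p = 0.0061) and -0.32, -0.54 and -0.79 at P13 (mean -0.55, adjusted p = 0.053). All 9 values were below 0, the P13 mean missed the threshold, and in P13-O/P9-N it was lower again (-0.74, adjusted p = 0.0025). *Slc38a3*, a glutamine carrier of the same family as *Slc38a5* and abundant in Mueller glia, was -0.09 at P8, lower at P12 (-0.50, SE 0.08, adjusted p = 0.0035) and -0.01 at P13. The 2 genes were not tested against each other.

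With age, *Slc38a5* and *Slc38a3* went opposite ways. *Slc38a3* was lower at P9 than at P30, at -1.13, -1.32 and -1.36 (mean -1.27, adjusted p = 3.8e-08), where *Slc38a5* was higher. The taurine carrier *Slc6a6* was lower at P9 too (-1.98, SE 0.15, adjusted p = 2.7e-07) and higher in P13-O/P9-N (1.52, adjusted p = 2.6e-05). Of the other barrier carriers 8 of 19 were lower at P9 than at P30 and 3 higher, *Slc40a1* among the latter (0.48, adjusted p = 0.011). Of all probes tested, 16.2% were lower at P9 than at P30 and 17.5% higher, the latter near the share of 3 of 19. In P13-O/P9-N 4.55% of all probes were higher. Rod genes, of which 18 of 20 were tested, moved in the same arrays: 16 were lower at P9 than at P30 and 12 higher in P13-O/P9-N, with medians of -1.07 and 0.56. Genes of pigment epithelium and choroid were higher at P9 than at P30 for 4 of 7 and lower for 0 (median 0.54), the direction of *Slc38a5* and *Slc40a1*, among them the pigment genes *Tyrp1* (1.84, SE 0.22) and *Dct* (1.43, SE 0.23) and the thyroxine binder *Ttr* (0.83, SE 0.14). In the other 4 comparisons the median of this list lay between -0.05 and 0.16. Of Mueller glia genes 4 of 8 were lower at P9 than at P30 and 3 higher, with *Glul*, glutamine synthetase, at -2.31 and *Dkk3* at -1.03 beside *Slc38a3*. *Glul* and 3 of the 16 lower rod genes had also been used to set the direction of these arrays. The part of these cell types in the carrier values was not tested.

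**Figure D3:**
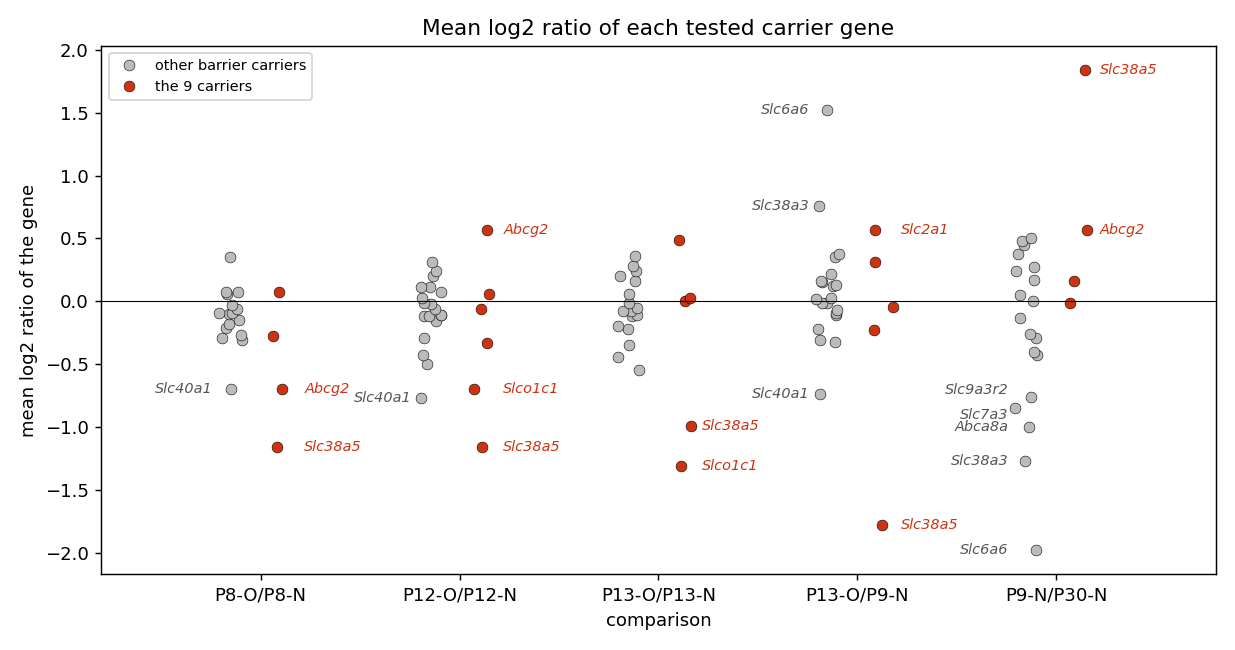
Mean log2 ratio (y axis) of each tested gene among the 9 carriers (red, right of each tick) and the 35 other barrier carriers (grey, left) in the 5 comparisons (x axis), with names on the larger changes. *Slc38a5* is the lowest carrier at P8 and P12 and, in P9-N/P30-N, the highest at 1.84, where *Slc6a6* and *Slc38a3* are lowest at -1.98 and -1.27.

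Genes of the same families as the 9 carriers were called in OIR over normal retina for 0 of 24 at P8, 1 higher and 3 lower of 32 at P12 and 0 of 26 at P13 (limma), with 3.2% of all probes higher and 3.88% lower at P12. Of those 4 genes 2, *Slc38a3* and *Abcc5*, are also among the 4 barrier carriers counted above. With age they moved more: 12 of 27 were lower at P9 than at P30 and 2 higher, beside 16.2% and 17.5% of all probes. Of these, *Slc38a3* and *Slc7a3* were also called among the other barrier carriers. *Slc16a6*, a relative of the lactate carriers, was at -2.06 on 1 probe (SE 0.09, adjusted p = 1e-08) and at -1.32 on its noisier second probe (SE 0.74, adjusted p = 0.21). *Emb*, which encodes a partner of some lactate carriers at the membrane, was at -1.34 (adjusted p = 1.4e-06). *Slc2a3*, the neuronal glucose carrier GLUT3, was at -0.63 (adjusted p = 0.00019) and, like *Slc2a1*, higher in P13-O/P9-N, at 1.30, 1.22 and 1.05 (mean 1.19, adjusted p = 6e-06). In OIR over normal retina it was -0.40 at P8, -0.22 at P12 and 0.36 at P13, none of which passed the test (adjusted p = 0.1, 0.18 and 0.1).

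Hypoxia-inducible genes changed between P8 and P13 where *Slc38a5* gave no detectable difference. Of those tested, 11 of 16 were lower at P8, 6 of 18 at P12, and 13 of 18 were higher at P13, with medians of -0.74, -0.21 and 0.66. Of the called genes, 5 of 11 at P8 and 9 of 13 at P13, *Vegfa* among them, had also been used to set the direction of the arrays, and the other 6 and 4 had not. Of all probes tested, 0.432% were lower at P8 and 3.88% at P12, and 0.963% were higher at P13. For the hypoxia-inducible genes, P13 minus P8 was itself called higher for 15 of 16, beside 1.5% of all probes called in either direction. *Vegfa*, the vessel growth factor, went from -1.78 at P8 to 1.22 at P13 (SE 0.12 at each age). *Slc38a5* stood at -1.16 and -0.99 in the same comparisons. For P13 minus P8 its 95% interval was -0.27 to 0.60, and the means of the hypoxia-inducible genes ran from 0.21 to 3.00 (median 1.48). *Slc38a5* was not tested against these genes. Amino acid response genes, which cells switch on when amino acids are scarce, were called for 0 of 14 at P8, 1 of 16 lower at P12 and 0 of 12 at P13. Of genes of thyroid hormone transport and action, *Crym*, which binds thyroid hormone inside cells, was higher at P13 (0.48, SE 0.09, adjusted p = 0.02), as 1 of 11, and *Hr*, a gene that thyroid hormone induces in brain, was lower at P12 (-0.52, SE 0.11, adjusted p = 0.019), as 1 of 10.

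The genes most like *Slc38a5* over the 15 arrays, of 10238 probes compared, were *Gpx7*, *Dynlrb2*, *Marcksl1*, *Wdr66* and *Hacd1*, each with a Pearson r of 0.98. The likeness is a description, and the arrays of P9-N/P30-N stand apart from the other 12 in it. There these genes stood at 0.99, 1.19, 2.53, 2.01 and 1.10, and in OIR over normal retina they lay between -0.28 and 0.29 and were not called at any age. Without the P9-N/P30-N arrays r was 0.84, 0.78, 0.85, 0.74 and 0.70 over 12 arrays. The genes were picked on arrays that include these 12, so a high r there is partly set by the choice. In P13-O/P9-N they stood at -0.39, -0.15, -0.90, -0.66 and -0.12, beside -1.78 for *Slc38a5*.

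**Figure D4:**
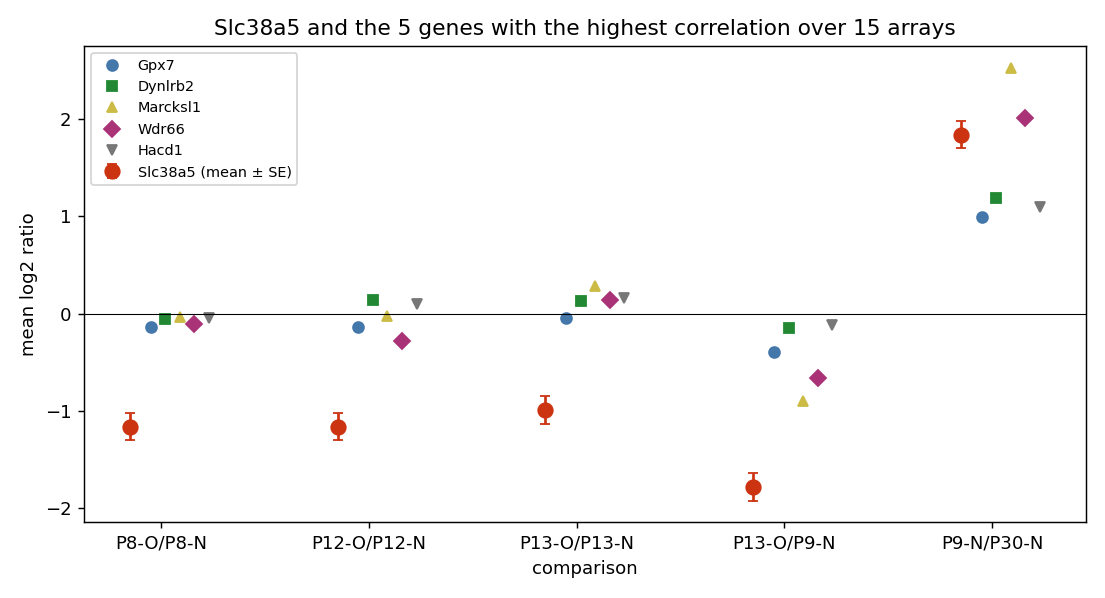
Mean log2 ratio (y axis) of *Slc38a5* (± SE) and of the 5 genes that correlated best with it over 15 arrays, in the 5 comparisons (x axis). The 5 genes are high with *Slc38a5* in P9-N/P30-N, at 0.99 to 2.53, and near 0 in OIR over normal retina, where *Slc38a5* is at -1.16 to -0.99.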

How the data were processed

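The authors deposited 1 column of normalized log2 ratios between the dyes for each of the 15 arrays. The study compared pooled retinal RNA on mouse whole-genome arrays with 29922 probes, with the dyes swapped for each pair. The labels call the ratios not averaged over the 2 scans, and how the switched scans were used is not given in the sources used here, so a dye effect of a probe may remain. The normalization, the background correction and the rule for blanks are not given in the sources used here. The direction was set from genes whose direction the paper prints, leaving out the 9 carriers: of those tested, 15 of 15 at P8, 3 of 3 at P12, 35 of 36 at P13 and 30 of 30 for P9 over P30, after these arrays were inverted, had that sign. *Cldn5* and the pericyte gene *Vtn* are 2 of the 3 at P12. The genes used also include 5 called hypoxia-inducible genes at P8, 9 at P13, and 3 called rod genes and *Glul* in P9-N/P30-N. The signs of all these genes there are therefore not independent of this choice. For P13-O/P9-N, of which the paper prints no gene, the labels' channel order decided.

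Gene names came from the platform annotation (21020 probes with 1 symbol, 16675 symbols), of which 13905 were current and 2728 were updated through RefSeq synonyms. One limma 3.58.1 fit in R 4.3.3 gave a mean per comparison over all 15 arrays, tested against 0, with Benjamini-Hochberg adjustment over all probes with at least 2 values in the comparison. Differences between comparisons were contrasts of that fit. The 95% intervals use the moderated standard error. The study's 1.5-fold SAM rule was an alternative (1-class SAM, false discovery rate 5%, without the fold). For a list, the probes of a gene were averaged for the median, and a gene was counted by its called probes. Of each list up to 4 called genes with 1 sign on every array and the largest means could be named, while *Fzd4*, *Axin2*, *Slc2a3* and further values of named genes were chosen after they had been seen. Likeness was the Pearson r over at least 12 shared arrays, for called members with as many values. The procedure was tested on simulated data with independent arrays and 1 spread per probe, as the fit assumes. That simulation could not show whether sharing the spread over the comparisons holds for the real arrays. The members and lists were chosen with earlier results of these data known. The limma p-values measure the spread between replicate arrays within comparisons, taken over all 15 arrays and moderated over probes. This spread holds labelling and hybridization as well as the pools, which may be shared between comparisons. The number of arrays limits the precision. Plots were made in Python 3.11.15 (matplotlib 3.10.9).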

Additional observations from a re-analysis of the deposited data

How the results depend on the processing

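The direction of every carrier call held under every alternative that gave a value, except that *Slco1c1* at P12 stood at 0.05 relative to the endothelial genes, a scale chosen after seeing the data. Of values that were not called, *Slc38a5* in P13 minus P12 turned to -0.06 when arrays were scaled to the same spread, and *Slc3a2* in the indirect comparison turned to 0.15 without replicate 1 of P13-O/P9-N (range over the arrays left out -0.45 to 0.15). The number of carrier probes called was 1 at P8, 2 at P12, 2 at P13, 2 in P13-O/P9-N, 1 in P9-N/P30-N and 1 in the indirect comparison. In a separate fit of each comparison it was 0, 1, 0, 2, 2 and 0, and with SAM, which gives no contrast, 0, 1, 0, 1 and 4. Calls gained in P9-N/P30-N were *Abcg2* in the separate fit (adjusted p = 0.012), and *Slc3a2* (0.033) and both *Slc7a1* probes (0.032 and 0.031) in SAM. At an adjusted p under 0.01, 1 was called at P12, 1 at P13, 1 in P13-O/P9-N and 0 indirectly. Asking for 1.5-fold as well left 1 in P13-O/P9-N. Keeping only probes with a value on all 15 arrays left 1 each at P12, P13 and in P13-O/P9-N, since *Slco1c1* and *Slc2a1* drop out, and a value on all 3 arrays left 1 at P13. Scaling to the same spread left 0 in the indirect comparison. Leaving out 1 array gave 1 at P8, 1 to 2 at P12, 0 to 2 at P13, 1 to 2 in P13-O/P9-N, 1 in P9-N/P30-N and 0 to 1 indirectly. Median centring, array weights and averaging the probes of a gene left these counts within 1.5 times. Array weights added *Slc3a2* in P13-O/P9-N (limma adjusted p = 0.044). The cause of these differences was not tested. Differences between OIR ages had 0 carrier probes called under each alternative run.

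The replicate numbers were not taken to pair the arrays: deviations of same-numbered arrays correlated at -0.19 to 0.21 over 30 pairs, with 5 pairs above 0.1. With the replicate number as a block the counts were 1, 2, 2, 1, 1 and 0 in the same order, *Slc2a1* in P13-O/P9-N and the indirect *Slc38a5* value each losing the call at an adjusted p of 0.057.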
